A study of Mus musculus with 11 samples.

Results

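The 10 genes described here, mt-Nd1, mt-Nd2, mt-Nd4, mt-Nd5, mt-Cytb, mt-Co1, mt-Co2, mt-Co3, mt-Atp6 and mt-Atp8, lie on the mitochondrial chromosome. They were chosen by name from the 13 mitochondrially encoded genes among the 34866 genes counted, and because mt-Atp8 had been seen to be lower relative to mt-Atp6 in every ablation line than in control. Values of the lines against control are therefore given as a description with no test. The remaining 3, mt-Nd3, mt-Nd4l and mt-Nd6, are given beside them where a value turns on them.

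RNA was sequenced from corpus gastric mucosa of 11 mouse samples, in libraries prepared with a stranded mRNA kit. Control mice were wild type (2 samples). The other genotypes, with 3 samples each, were ATP4B-DTR, named for the proton pump subunit gene of the acid-secreting parietal cell, GIF-DTR, named for the gastric intrinsic factor gene of the pepsinogen-secreting chief cell, and GIF/ATP4B-DTR, which carries both names. The lines were built to remove those cell types. DTR usually stands for the diphtheria toxin receptor, which makes the cells that carry it sensitive to the toxin. Age, toxin dose and time of sampling are not given in the sources used here, nor is it stated that the samples of a group came from separate animals, so the p-values below measure the spread between these samples. The 11 libraries held between 20.69 M and 27.95 M counts. Of the parietal markers, 8 of 8 were counted, and their summed level in CPM (counts divided by each library's scaled total) lay between 17650 and 18900 in control, 3751 and 5398 in ATP4B-DTR, 8271 and 10530 in GIF-DTR, and 1588 and 3046 in GIF/ATP4B-DTR. Atp4a, Atp4b and Clic6 made up most of that sum. From control to ATP4B-DTR, the means of Kcnq1, Kcne2 and Slc9a4 went from 142, 189 and 343 CPM to 113, 163 and 293. The mean of Slc26a7 went from 74.8 to 0.513 CPM and that of Aqp4 from 20.2 to 27.0. Aqp4 alone was also higher than control in GIF-DTR, and none of the 8 was in GIF/ATP4B-DTR. The 6 chief cell markers summed to 85900 and 192500 CPM in control. Their sum was lower in every line, at 17010 to 62020 in ATP4B-DTR, 5109 to 22620 in GIF-DTR, and 2823 to 12430 in GIF/ATP4B-DTR. Pgc and Chia1 made up most of that sum. In ATP4B-DTR 5 of the 6 were lower than control, and Cpb1 was higher (means of 1.17 and 0.52 CPM). All 6 were lower in the other lines.

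The mitochondrial genome encodes a small set of membrane subunits of the respiratory chain and the ATP synthase, while all other subunits, and the enzymes and ribosomal proteins that express the mitochondrial genes, come from the nucleus. It is transcribed as long RNAs that are cut, mostly at the transfer RNAs between the genes, into messenger RNAs. A pair of these messengers carries 2 overlapping reading frames each, mt-Atp8 with mt-Atp6 and mt-Nd4l with mt-Nd4. Parietal cells are among the cells richest in mitochondria, because proton pumping consumes much ATP.

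The sequences are shown because the overlaps and the near-identical nuclear copies decide how reads can be divided among these genes. All positions are on mouse build mm10 as annotated by GENCODE M21. The mt-Atp8 reading frame (chrM:7766-7969, plus strand) is 204 bases long, and its last 43 bases, in capitals, are also the first 43 bases of mt-Atp6 (chrM:7927-8607). The start of mt-Atp6 is printed for chrM:7927-8016, with the shared bases in capitals again. The end of mt-Nd4l (chrM:10084-10173) shares 7 bases, in capitals, with mt-Nd4.
mt-Atp8: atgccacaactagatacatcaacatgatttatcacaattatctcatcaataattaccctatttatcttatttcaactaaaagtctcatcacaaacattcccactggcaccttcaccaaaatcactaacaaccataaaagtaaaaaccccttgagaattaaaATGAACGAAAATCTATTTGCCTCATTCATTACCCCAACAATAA
mt-Atp6 start: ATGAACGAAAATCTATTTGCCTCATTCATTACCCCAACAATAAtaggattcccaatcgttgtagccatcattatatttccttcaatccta
mt-Nd4l end: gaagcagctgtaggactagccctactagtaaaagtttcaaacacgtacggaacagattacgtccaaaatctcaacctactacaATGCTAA

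Annotated transcripts elsewhere in the genome matched a mitochondrial gene over at least 100 bases at 95% identity or more in 11 cases, of which 9 matched one of the 10 genes. A block of 7 of them lies on chromosome 1, from position 24611535 to 24616197 on the minus strand, a stretch of 4663 bases that runs through the mitochondrial gene order from mt-Co1 to mt-Nd4. In it the copies of mt-Atp6 (Gm10925, 678 bases), mt-Co2 (Gm28661, 681 bases), mt-Co3 (Gm28437, 783 bases) and mt-Nd4 (Gm28439, 876 bases) carried no mismatch, and the copy of the end of mt-Co1 (Gm29216) carried 1 in 483 aligned bases, A1066T counted from the first base of mt-Co1. Where mt-Atp8 would lie, between Gm10925 and Gm28661, the annotation has no gene over 233 bases. No copy was found for mt-Atp8, mt-Nd1 or mt-Cytb. The copy of mt-Nd3, Gm28438, differed by T3C, counted from the first base of mt-Nd3. The first 33 bases of mt-Nd3 (chrM:9459-9491, plus strand) and of Gm28438 (chr1:24613087-24613119, minus strand) are printed with that base in capitals.
mt-Nd3: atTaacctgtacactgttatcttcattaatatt
Gm28438: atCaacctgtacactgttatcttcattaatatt

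The 10 genes made up a smaller part of all counts in both lines named for ATP4B than in control. Their summed share was 9.03% and 8.41% in the controls. It was 5.44%, 5.91% and 3.71% in ATP4B-DTR, while GIF/ATP4B-DTR had 5.003%, 6.57% and 4.52%, and GIF-DTR had 10.3%, 6.59% and 7.88%. Every sample of the first pair of lines lay below both controls, whereas the GIF-DTR samples lay on both sides of them. Group means were 8.72% ± 0.44 in control (SD, n = 2), 5.02% ± 1.16 in ATP4B-DTR, 5.36% ± 1.07 for GIF/ATP4B-DTR and 8.27% ± 1.90 for GIF-DTR (each SD, n = 3). The 95% Wilson interval of a single library's share was at most 0.0259 percentage points wide, which covers counting error only. In GIF-DTR every parietal marker sum lay below both controls, while the mitochondrial shares lay on both sides of them. Fewer parietal cells and less mitochondrial RNA per cell cannot be told apart in such bulk samples, and the part of the parietal cells in these shares was not tested.

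GIF-DTR replicate 1 had the highest share of the 11 libraries and also the highest summed level of the 6 smooth muscle markers, 2516 CPM, against 426.6 and 670 CPM in the other GIF-DTR samples. The smooth muscle sums of the controls were 359.4 CPM in replicate 1 and 2135 CPM in replicate 2. The part of smooth muscle in the shares was not tested. Without GIF-DTR replicate 1, the mean share of GIF-DTR was 1.49 percentage points below control (-1.49), and without GIF-DTR replicate 2 it was 0.39 points above.

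With CPM scaled for library composition (TMM, edgeR's trimmed mean method), each of the 10 genes had a lower mean level in each line than in control. Line and control samples did not overlap for 10 of 10 genes in ATP4B-DTR, 10 of 10 in GIF/ATP4B-DTR, and 4 of 10 (mt-Co2, mt-Co3, mt-Atp6 and mt-Atp8) in GIF-DTR. Over the 14889 genes tested, 48.6% did not overlap with control in ATP4B-DTR (23.3% lower), 56.3% in GIF/ATP4B-DTR (27.2% lower) and 48% in GIF-DTR (23% lower). From here, values for the 3 lines follow the order ATP4B-DTR, GIF-DTR, then GIF/ATP4B-DTR unless named otherwise. Of the 14889 genes tested, edgeR called 21.6%, 16.8% and 33.6% against control, and 9.39%, 6.82% and 15.4% of the genes tested were called lower. All 3 contrasts use the same 2 controls, and the choice of genes rested on them, so nothing is read from these counts. The median difference from control over the 10 genes was -1.39, -0.49 and -1.28 on the log2 scale. Fold differences of mitochondrial genes from control given below come from means of log2 values, not from means of CPM. Without a scaling factor, as plain shares of all counts, mt-Co1 and mt-Nd1 were higher in GIF-DTR than in control (8 of 10 genes lower), while all 10 stayed lower in the other lines. The plot of levels by gene and library shows the wide gap for mt-Atp8 beside the smaller ones of the other genes.

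**Figure D1:**
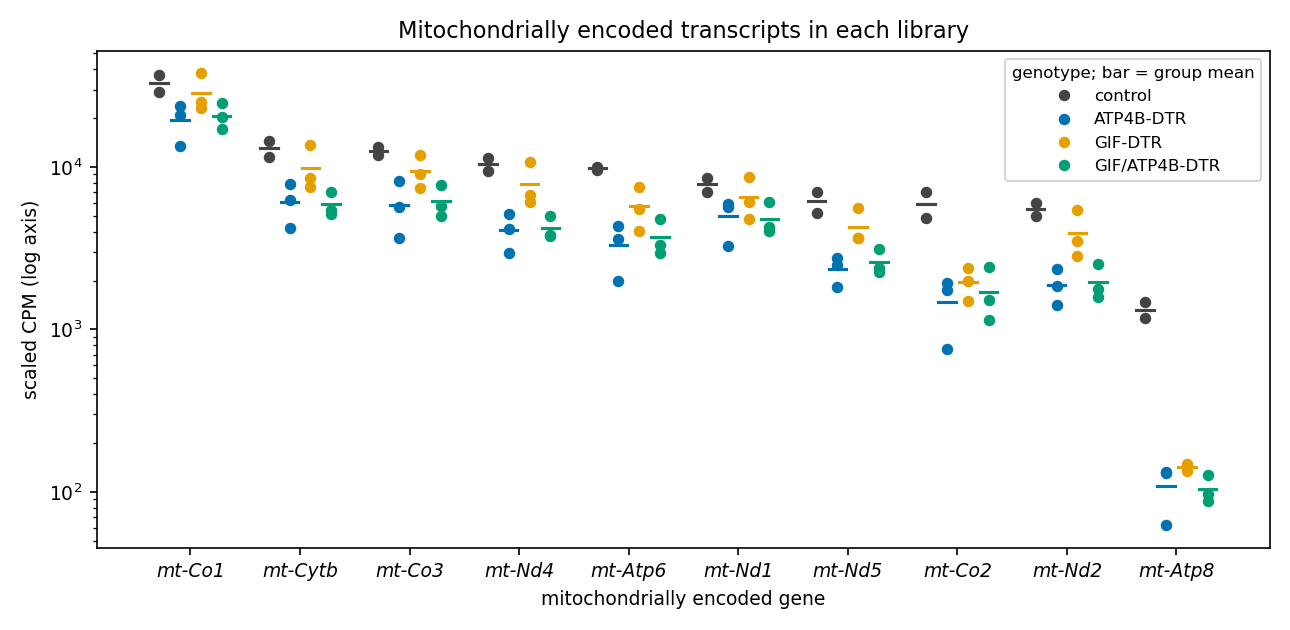
TMM-scaled CPM (log axis) of the 10 mitochondrially encoded genes in the 11 libraries, ordered by their mean in control; points are libraries, coloured by genotype, and bars are group means. The mt-Atp8 points of the 9 line libraries sit between 62.3 and 149.4 CPM, against 1175 and 1474 CPM in the controls.

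Complex I, the NADH dehydrogenase through which electrons enter the chain, was represented by mt-Nd1, mt-Nd2, mt-Nd4 and mt-Nd5. The level of mt-Nd1 was 8597 and 7058 CPM in control, 5700, 5957 and 3270 in ATP4B-DTR, 8633, 4812 and 6070 in GIF-DTR, and 4018, 6078 and 4261 in GIF/ATP4B-DTR. The level of mt-Nd2 was 6011 and 4965 CPM in control, 1841, 2343 and 1422 in ATP4B-DTR, 5464, 2841 and 3483 in GIF-DTR, and 1584, 2519 and 1785 in GIF/ATP4B-DTR. These neighbours, separated by transfer RNA genes only, thus moved by different amounts. In ATP4B-DTR the mean of mt-Nd1 was 1.62-fold below control and that of mt-Nd2 2.98-fold. The ratio of mt-Nd1 to mt-Nd2 counts was 1.43 and 1.42 in control, 1.58, 1.69 and 1.74 in GIF-DTR, 3.10, 2.54 and 2.30 for ATP4B-DTR, and 2.54, 2.41 and 2.39 for GIF/ATP4B-DTR. By this ratio GIF-DTR lay near control and apart from both other lines.

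The level of mt-Nd4 was 11340 and 9493 CPM in control, 4160, 5105 and 2939 in ATP4B-DTR, 10780, 6079 and 6753 in GIF-DTR, and 3832, 4976 and 3785 in GIF/ATP4B-DTR. That of mt-Nd5 was 7064 and 5217 CPM in control, between 1815 and 2746 in ATP4B-DTR, between 3631 and 5565 in GIF-DTR, and between 2272 and 3142 in GIF/ATP4B-DTR. Both genes followed mt-Nd2 more than mt-Nd1, with means 2.62-fold below control in ATP4B-DTR.

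Complex III was represented by mt-Cytb, its cytochrome b. It was at 14510 and 11530 CPM in control, 6239, 7825 and 4211 in ATP4B-DTR, 13570, 7506 and 8618 in GIF-DTR, and 5453, 7023 and 5166 in GIF/ATP4B-DTR. No annotated nuclear copy of it passed the length and identity thresholds above, so it shared no counts with a listed copy. Shorter, more diverged or unannotated copies were not looked for. The mean of mt-Cytb was 2.19-fold below control in ATP4B-DTR, 1.35-fold in GIF-DTR, where the groups overlapped, and 2.22-fold in GIF/ATP4B-DTR.

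Complex IV, the cytochrome c oxidase that passes electrons to oxygen, was represented by its 3 catalytic core subunits. The most abundant transcript of the 10, mt-Co1, was at 36670 and 29130 CPM in control, 20840, 23840 and 13430 in ATP4B-DTR, 37730, 23130 and 25220 in GIF-DTR, and 20440, 24660 and 17060 in GIF/ATP4B-DTR. It was among the least shifted, at 1.74-fold, 1.17-fold and 1.60-fold below control in the 3 lines in that order. The level of mt-Co2 was 4873 and 6969 CPM in control and between 754.6 and 2417 CPM in the 9 line libraries, 4.28-fold, 3.03-fold and 3.62-fold below control. With the counts of its nuclear copies added, mt-Co2 was 1.44-fold, 1.02-fold and 1.47-fold below control, and ATP4B-DTR and GIF-DTR overlapped with control. The level of mt-Co3 was 13270 and 11810 CPM in control, 5698, 8216 and 3649 in ATP4B-DTR, 11800, 7466 and 9017 in GIF-DTR, and 5760, 7724 and 5022 in GIF/ATP4B-DTR.

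The ATP synthase was represented by mt-Atp6, the subunit that forms part of its proton channel, and mt-Atp8, a small subunit of its membrane stalk. The level of mt-Atp6 was 9540 and 10050 CPM in control, 3584, 4342 and 1978 in ATP4B-DTR, 7550, 4051 and 5548 in GIF-DTR, and 3332, 4772 and 2972 in GIF/ATP4B-DTR. The level of mt-Atp8 was 1474 and 1175 CPM in control, 133.3, 130.0 and 62.3 in ATP4B-DTR, 133.6, 145.0 and 149.4 in GIF-DTR, and 97.2, 127.6 and 88.0 in GIF/ATP4B-DTR. The 9 line libraries lay within a narrow band far below both controls, and unlike the other genes mt-Atp8 was no closer to control in GIF-DTR replicate 1 than in the rest of its group. By means of log2 values, mt-Atp8 was 12.8-fold, 9.24-fold and 12.8-fold below control in the 3 lines.

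Per 100 counts of mt-Atp6, mt-Atp8 had 15.5 and 11.7 counts in control. It had 3.72, 2.99 and 3.15 in ATP4B-DTR, 1.77, 3.58 and 2.69 in GIF-DTR, and 2.92, 2.67 and 2.96 in GIF/ATP4B-DTR. The ratio was thus 4.11-fold, 5.22-fold and 4.72-fold lower than in control, and no line library came near a control. This is the pattern for which the genes were listed. With the counts of the nuclear copy Gm10925 added to mt-Atp6, the controls moved together, to 10 and 9.74 per 100, and the line libraries lay between 0.817 and 1.76 per 100. The ratio was then 7.10-fold, 8.98-fold and 7.53-fold below control. This sum is uneven, since no copy of mt-Atp8 is annotated and none could be added to it. Reads of mt-Atp8 placed on an unannotated copy would not be counted, so these larger folds are not corrected estimates.

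**Figure D2:**
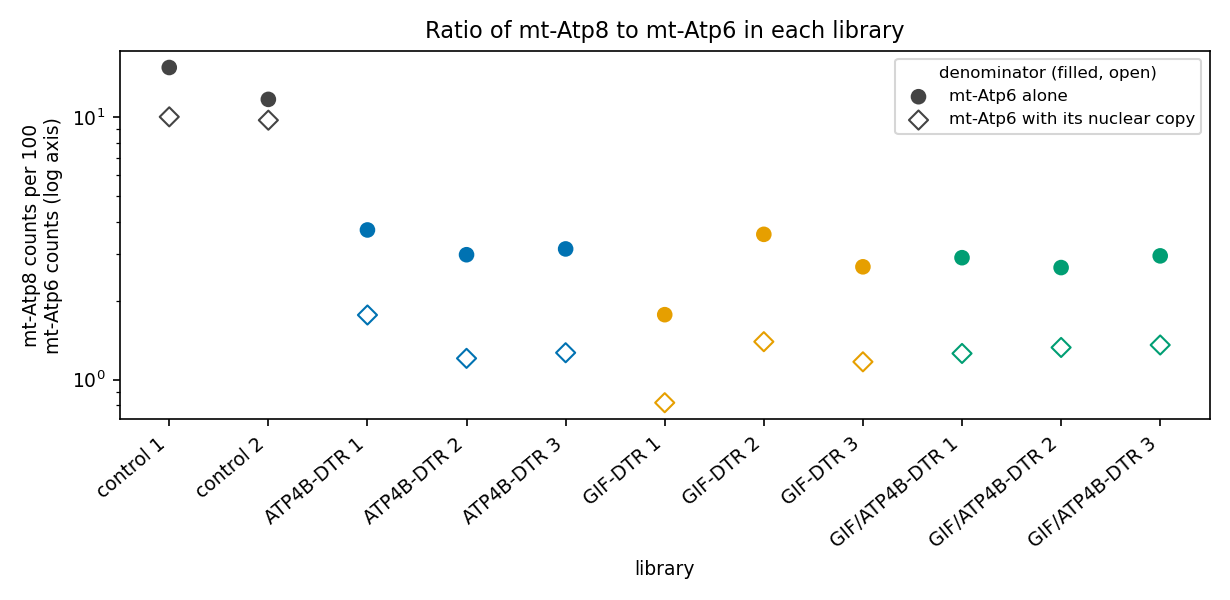
Counts of mt-Atp8 per 100 counts of mt-Atp6 (log axis) in each of the 11 libraries, coloured by genotype. Filled circles use mt-Atp6 alone and open diamonds add the counts of its nuclear copy to it. No copy of mt-Atp8 is annotated, so none was added to mt-Atp8. The 2 controls lie at 15.5 and 11.7 (10 and 9.74 with the copy), and the 9 line libraries at 3.72 or below.

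The nuclear copies took up many counts, and controls and lines divided them differently. The counting program is not given in the sources used here, and the values held fractions, as when a read that fits several transcripts is split among them. The mitochondrial gene received 64.9% and 83.3% of the counts of mt-Atp6 and its copy in control, and between 39.0% and 49.6% in the 9 line libraries. For mt-Co2 the share was 37.2% and 71.3% in control and between 14.5% and 25.0% in the lines. For mt-Co1 and mt-Co3 the mitochondrial gene kept between 80.3% and 96.1% in all 11 libraries, although Gm28437 matches mt-Co3 over 783 bases without a mismatch. For mt-Nd2, mt-Nd4 and mt-Nd5 it kept 100% after rounding, and Gm28439 likewise matches mt-Nd4 over 876 bases without a mismatch.

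The widest contrast in this division concerned mt-Nd3, a complex I subunit outside the 10 genes, which was followed up after its values were seen. Its copy Gm28438 held 963 and 707 CPM in control. In each of the 9 line libraries Gm28438 held less than 0.01 counts, far below the floor of 3 counts, which is at least 0.107 CPM. mt-Nd3 alone was at 750 CPM in both controls and between 693 and 1996 CPM in the lines, lying above both controls in every sample of GIF-DTR and of GIF/ATP4B-DTR and on both sides of them in ATP4B-DTR. With Gm28438 added, control held 1713 and 1457 CPM. Among annotated genes with a mean of at least 8 CPM in control, 3 others, Gm5537, Gm10359 and Rps6-ps4, were present in both controls and at or under the floor in all 9 line libraries, and all are annotated as processed pseudogenes. A difference between genotypes and a difference in how control and line libraries were made or counted cannot be told apart here, since all controls fall on one side and all lines on the other.

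**Figure D3:**
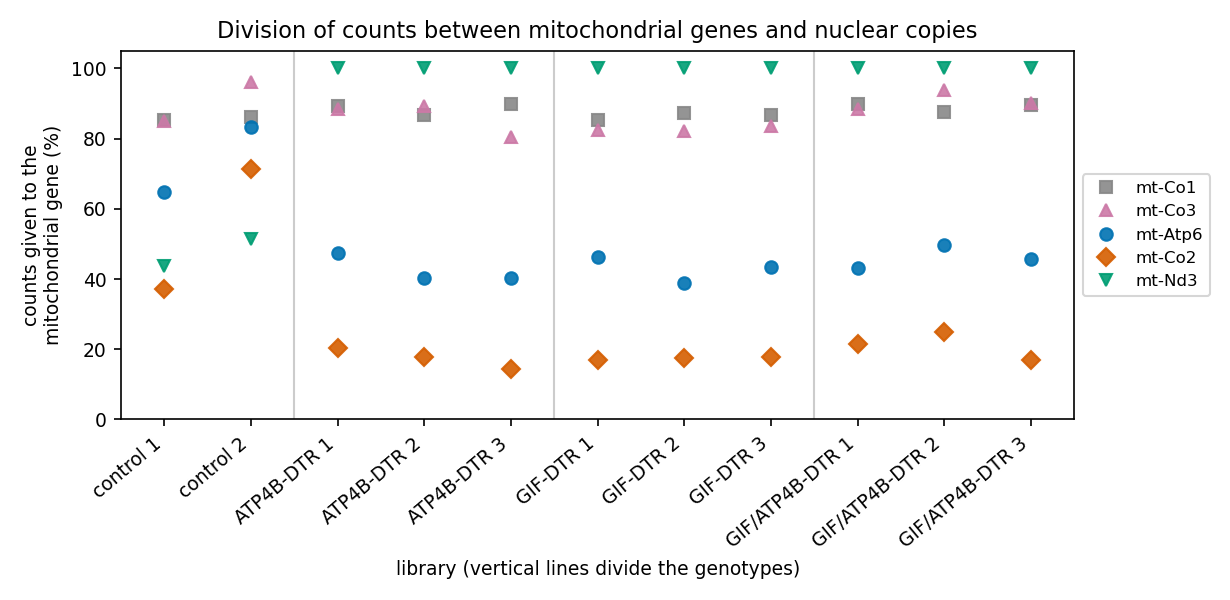
Percentage of the counts of a mitochondrial gene and its nuclear copies that was given to the mitochondrial gene, in each library, for mt-Co1, mt-Co3, mt-Atp6, mt-Co2 and mt-Nd3. For mt-Nd3 the controls lie at 43.8% and 51.5% and all 9 line libraries at 100%, and for mt-Co2 all lines lie at 25.0% or below.

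With the copies added to their genes, fewer differences from control remained apart. The groups did not overlap for 9 of the 10 genes in ATP4B-DTR, 10 in GIF/ATP4B-DTR and 1, mt-Atp8, in GIF-DTR, beside the 48.6%, 56.3% and 48% of all genes given above. The median difference from control became -1.12, -0.37 and -1.10 on the log2 scale in the 3 lines. The summed share of counts became 10.8% and 9.26% in control, 6.91%, 7.79% and 4.79% in ATP4B-DTR, 13.3%, 8.58% and 10.4% in GIF-DTR, and 6.34%, 8.23% and 5.73% in GIF/ATP4B-DTR. The mean of GIF-DTR then lay 0.70 percentage points above control rather than 0.45 below (-0.45). With copies not added but the 50 most abundant nuclear genes left out of the total, the difference from control was -2.69 points in GIF-DTR, -6.57 for ATP4B-DTR and -6.43 for GIF/ATP4B-DTR.

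Levels per kilobase with copies put the 10 genes in order within control. mt-Co1 came first (27860 and 21850 CPM per kb), above mt-Atp6 (21580 and 17720) by less than the gap between the 2 controls. mt-Atp6, mt-Co3 (19890 and 15660) and mt-Co2 (19140 and 14300) overlapped. mt-Cytb followed at 12680 and 10070, apart from its neighbours on both sides. mt-Nd1 (8983 and 7375), mt-Nd4 (8228 and 6889), mt-Atp8 (7228 and 5761) and mt-Nd2 (5791 and 4783) each overlapped with the next, and mt-Nd5 came last at 3873 and 2860. In the lines mt-Atp8 moved from the eighth place to the bottom, at 305.4 to 732.3 CPM per kb, below mt-Nd5 in each of the 9 line libraries.

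Shares of all mitochondrial messenger counts were taken with copies included, although no annotated copy could be added for mt-Atp8. mt-Atp8 made up 1.05% in both controls and between 0.097% and 0.193% in the 9 line libraries, a 6.98-fold lower mean. The next shortest transcript, mt-Nd4l, made up 1.12% and 1.07% in control and between 0.541% and 0.692% in the lines, 1.78-fold less. The third shortest, mt-Nd3, lay the other way, at 1.22% and 1.30% in control and between 1.37% and 1.91% in the lines. Of the longer transcripts, with the 9 line libraries pooled, mt-Nd2 was shifted most, 1.40-fold lower, and mt-Co2 was 1.27-fold higher. That ranking rests on the lines named for ATP4B. The mean share of mt-Nd2 was 3.67% in GIF-DTR, nearer to control than the 2.86% of ATP4B-DTR and 2.89% of GIF/ATP4B-DTR. Nuclear transcripts of up to 300 bases at 8 CPM or more were few, and all 4 of them were processed pseudogenes. Gm12895 was higher in all lines (139 to 264 CPM) than in control (99.1 and 94.6 CPM), Gm10443 was 22.5 and 16.2 CPM in control and 5.77 to 16.4 CPM in the lines, Gm12481 was 21.9 and 19.5 CPM in control and 10.3 to 18.7 CPM in the lines, and Gm8186 overlapped. The part of fragment or transcript length in the mt-Atp8 values was not tested further.

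**Figure D4:**
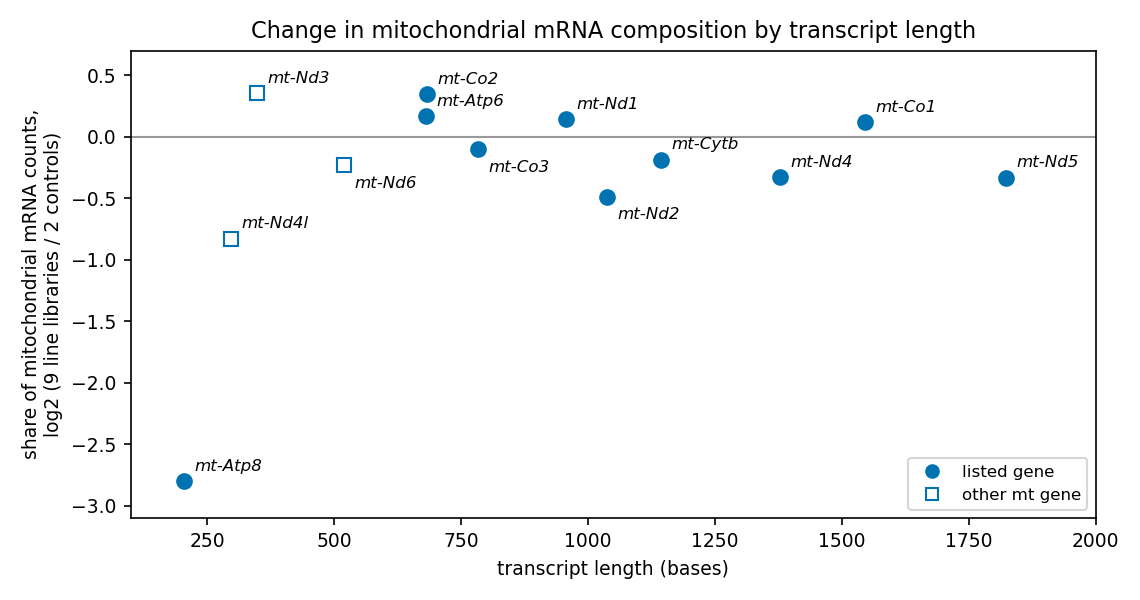
Difference between the 9 line libraries and the 2 controls in each messenger's share of all mitochondrial messenger counts (mean log2, copies included) against transcript length in bases; filled circles are the 10 listed genes and open squares the other 3. mt-Atp8, 204 bases long, lies at -2.80 and mt-Nd4l at -0.83, while the other 11 messengers lie between -0.49 and 0.35. No annotated copy could be added for mt-Atp8.

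Contrasts between lines were not those the genes were chosen on, but they use the line samples in which the ratio of mt-Atp8 to mt-Atp6 had been seen to be low. In GIF-DTR all 10 genes had higher levels than in ATP4B-DTR, with a median log2 fold change of 0.69 (range 0.39 to 1.07) against 0.01 over all genes tested. None passed edgeR's quasi-likelihood test at an adjusted p under 0.05, with 6 at an unadjusted p under 0.05 and 3 called by DESeq2. Of all genes, edgeR called 0.49% in this contrast, 0.403% higher and 0.0873% lower, while 9.81% had an unadjusted p under 0.05 and DESeq2 called 2.58%. The largest change was in mt-Nd2, 2.10-fold higher (log2 1.07 ± 0.28 SE, edgeR adjusted p = 0.17), followed by mt-Nd4 (log2 0.95 ± 0.27 SE, edgeR adjusted p = 0.208) and mt-Nd5 (log2 0.86 ± 0.25 SE, edgeR adjusted p = 0.204). The smallest was in mt-Nd1, at 0.39 ± 0.29. DESeq2 called mt-Nd2, mt-Nd4 and mt-Nd5, with adjusted p-values of 0.00624, 0.0112 and 0.0123.

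Against GIF-DTR, all 10 genes had lower levels in GIF/ATP4B-DTR, with a median of -0.62 and none called by edgeR (4 at an unadjusted p under 0.05, 3 called by DESeq2). Of all genes, edgeR called 2.53%, 0.336% higher and 2.19% lower, while 18% had an unadjusted p under 0.05 and DESeq2 called 6.9%. The lowest again was mt-Nd2, at -1.001 ± 0.284 (SE, edgeR adjusted p = 0.10), and DESeq2 called mt-Nd2, mt-Nd4 and mt-Nd5 once more. These contrasts share the GIF-DTR samples. Between GIF/ATP4B-DTR and ATP4B-DTR the 10 genes differed by at most 0.20 on the log2 scale, with 7 higher and 3 lower, and none was called by either tool or had an unadjusted p under 0.05. Of all genes 0% were called by edgeR in that contrast, with 1554 (10.4%) at an unadjusted p under 0.05, and DESeq2 called 1.91%. The spread of the estimates, with standard errors between 0.24 and 0.37, leaves room for differences of that size.

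Cell type markers also differed in value between the lines, in both directions. Of the 8 parietal markers, 2 were called in favour of GIF-DTR over ATP4B-DTR (median log2 fold change 0.40), and 4 were called lower in GIF/ATP4B-DTR than in GIF-DTR (median -1.62). The 7 macrophage markers summed to between 97.09 and 171.9 CPM in GIF-DTR, above every sample of ATP4B-DTR (41.71 to 92.96) and of GIF/ATP4B-DTR (35.42 to 58.96). For Cd68 the samples overlapped, with 5.32 to 6.96 CPM in GIF-DTR, 4.61 to 7.20 in ATP4B-DTR and 4.03 to 8.76 in GIF/ATP4B-DTR. All 7 fitted values were still higher in GIF-DTR than in either other line. Their median log2 fold change was -1.69 for GIF/ATP4B-DTR against GIF-DTR. The same direction held for the fitted values of all 6 fibroblast, 6 smooth muscle and 5 endothelial markers, with medians of -1.32, -1.36 and -1.94, but the summed levels of these lists overlapped between GIF-DTR and ATP4B-DTR. For smooth muscle, GIF-DTR replicate 1 alone (2516 CPM) lay above ATP4B-DTR (519.3 to 1215 CPM). Other lists lay the other way. The 5 endocrine markers were all lower in GIF-DTR than in ATP4B-DTR (median -0.80), and 4 of 5 were higher in GIF/ATP4B-DTR than in GIF-DTR (median 0.46). Chief markers were lower in GIF-DTR than in ATP4B-DTR for 5 of 6 (median -1.75), and all 6 proliferation markers were higher in GIF/ATP4B-DTR than in GIF-DTR (median 0.24). Of all these lists other than the parietal one, edgeR called 1 macrophage marker in GIF/ATP4B-DTR against GIF-DTR, and 0 between GIF-DTR and ATP4B-DTR. The part of these cells in the mitochondrial differences was not tested.

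**Figure D5:**
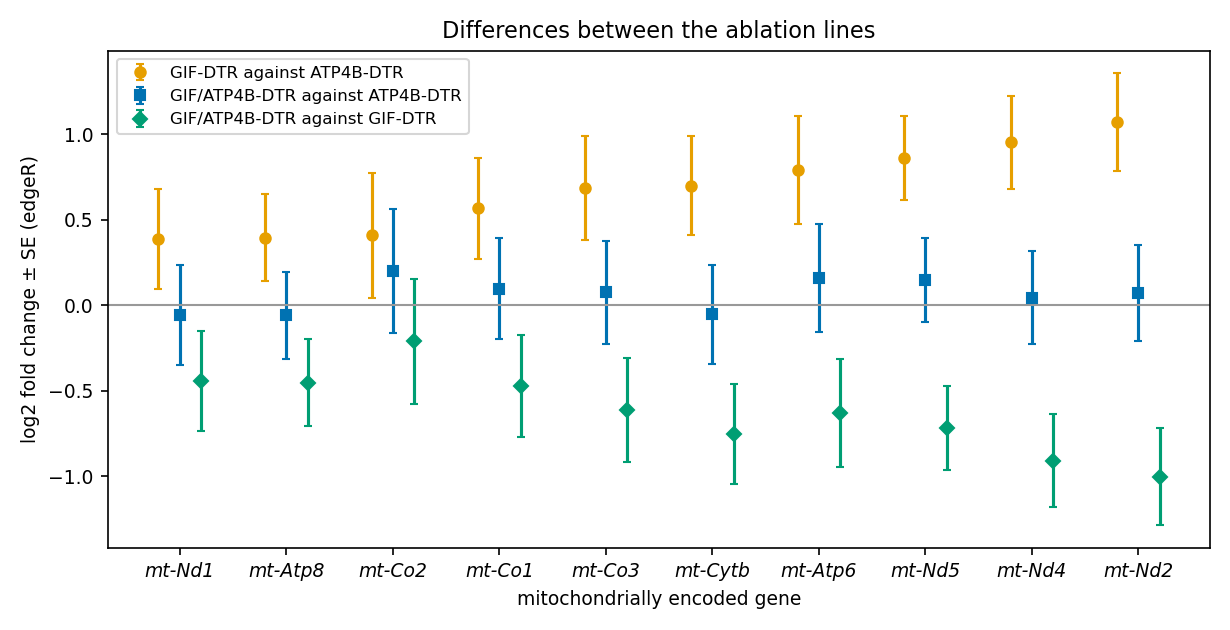
log2 fold change with its standard error (edgeR, 3 samples a line) of the 10 mitochondrially encoded genes in the 3 contrasts between lines, ordered by the first contrast. GIF-DTR against ATP4B-DTR lies above 0 and GIF/ATP4B-DTR against GIF-DTR below 0 for every gene, and the third contrast stays within 0.20 of 0.

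The mean summed share of counts in GIF-DTR exceeded that in ATP4B-DTR by 3.25 percentage points and that in GIF/ATP4B-DTR differed from GIF-DTR by -2.90 points. Each difference had an exact two-sided permutation p of 0.1, the smallest that 3 samples against 3 allow, and an adjusted p of 0.15 over the 3 pairs. Counts of Y-linked genes were present in all 3 GIF/ATP4B-DTR samples and in none of the GIF-DTR samples. This factor and the genotype therefore cannot be told apart in that pair. Both controls held such counts too, so the same is true of every GIF-DTR value against control. Among ATP4B-DTR samples they were present in 1 of 3. Without GIF-DTR replicate 1 these differences were 2.21 and -1.87 points. Between GIF/ATP4B-DTR and ATP4B-DTR the difference was 0.34 points (exact permutation p = 0.8), and it turned to -0.31 without ATP4B-DTR replicate 3 and to -0.26 without GIF/ATP4B-DTR replicate 2. The ratio of mt-Atp8 to mt-Atp6 differed between lines by -0.35 (GIF-DTR minus ATP4B-DTR), -0.20 (GIF/ATP4B-DTR minus ATP4B-DTR) and 0.15 (GIF/ATP4B-DTR minus GIF-DTR) on the log2 scale, given with no test because the genes were chosen on this ratio in these samples. The last difference turned to -0.12 without GIF-DTR replicate 1.

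The proportions of the mitochondrial messengers were compared between lines by exact permutation, in which 3 samples against 3 cannot go below p = 0.1, so that no difference could pass. With copies, mt-Nd2 made up 3.67% ± 0.27 of the messenger counts in GIF-DTR, 2.86% ± 0.27 for ATP4B-DTR and 2.89% ± 0.33 for GIF/ATP4B-DTR (SD, n = 3 each), against 4.27% and 4.44% in the controls. mt-Nd4 made up 7.39% ± 0.41, 6.19% ± 0.31 and 6.22% ± 0.31 in the same order. mt-Nd1 made up 6.12% ± 0.28, 7.51% ± 0.67 and 7.04% ± 0.60. GIF-DTR did not overlap with ATP4B-DTR for 4 of 13 messengers (mt-Nd1, mt-Nd2, mt-Nd4 and mt-Co1), or with GIF/ATP4B-DTR for 6 of 13, while ATP4B-DTR and GIF/ATP4B-DTR did not overlap for 1 (mt-Cytb). Each of these had an exact permutation p of 0.1 and, over the 39 comparisons, an adjusted p of 0.355. The 13 shares are parts of the same total and so are not independent. The share of all genes that do not overlap between lines was not computed, so nothing is read from these counts.

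Nuclear genes were then examined in lists of the proteins that copy, process and translate the mitochondrial genes. In contrast to the mitochondrial transcripts, many of these were higher in the lines. Here and in the lists that follow, all controls again fall on one side and all lines on the other. Genotype and a difference in how control and line libraries were made or counted therefore cannot be told apart in these calls. Of 149 tested genes of this machinery, 70 rose and 0 fell in ATP4B-DTR against control, 43 rose and 2 fell in GIF-DTR, and 85 rose and 3 fell in GIF/ATP4B-DTR (edgeR, adjusted p under 0.05). Among all genes the shares that rose were 12.2%, 9.97% and 18.2%, against 47.0%, 28.9% and 57.0% of the machinery. The median log2 fold change was 0.51, 0.39 and 0.61, against medians of all genes between -0.04 and -0.01. These counts rested heavily on control replicate 2, without which 14, 5 and 48 genes were called in the 3 lines. In GIF-DTR the 45 calls also became 18 without control replicate 1, 29 without GIF-DTR replicate 1 and 12 without GIF-DTR replicate 3. The 6 proliferation markers, 6 of 6 of which rose in each line, summed to between 144.7 and 218.8 CPM in control and between 355.2 and 617 CPM in the lines, and their part in these counts was not tested. Counts of Y-linked genes were present in both controls, in ATP4B-DTR replicate 1 and in the GIF/ATP4B-DTR samples and absent from the rest. With their presence as a covariate, 44 machinery genes were called in ATP4B-DTR and 3 in GIF-DTR. Only ATP4B-DTR held samples with and without these counts, so the covariate rests on its replicate 1 against the rest of that group. In GIF-DTR against control, genotype and the presence of Y-linked counts cannot be told apart.

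The mitochondrial ribosome contributed most of the calls. Of 48 large subunit proteins, 30, 17 and 35 rose in the 3 lines and 0 fell. Of 33 small subunit proteins, 20, 15 and 25 rose and 0 fell. Mrpl12, a large subunit protein, was at 100 and 74.6 CPM in control and between 167 and 299 CPM in the 9 line libraries, and rose by 1.35 ± 0.23, 1.08 ± 0.23 and 1.46 ± 0.23 on the log2 scale (SE, edgeR adjusted p = 0.00266, 0.011 and 0.000851). Mrps18c of the small subunit was at 26.5 and 22.3 CPM in control and between 40 and 85.6 CPM in the lines.

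Of 36 genes for RNA processing and decay, 14, 8 and 15 rose and 0, 1 and 3 fell. The 3 that fell in GIF/ATP4B-DTR are 8.33% of the list, against 15.4% of all genes called lower, and the 14, 8 and 15 are 38.9%, 22.2% and 41.7%, against 12.2%, 9.97% and 18.2% called higher. Slirp, which with its partner Lrpprc stabilises mitochondrial messengers, was at 21.8 and 19.2 CPM in control and between 37.4 and 79.3 CPM in the lines, with log2 fold changes of 1.20 ± 0.28, 1.23 ± 0.28 and 1.44 ± 0.29 (SE, edgeR adjusted p = 0.0132, 0.0158 and 0.00307). Mrm3, a methyltransferase of the mitochondrial ribosomal RNA, was at 4.40 and 5.05 CPM in control and between 8.33 and 16.9 CPM in the lines. Of 14 translation factors, 6, 3 and 6 rose and 0 fell. Guf1, a translation elongation factor, was 33.0, 31.2 and 27.3 CPM in ATP4B-DTR against 16.0 and 14.6 in control. Of the 18 genes of DNA maintenance and transcription, 0 were called in ATP4B-DTR, 1 fell in GIF-DTR and 4 rose in GIF/ATP4B-DTR, the last being 22.2% against 18.2% of all genes. Ssbp1, the single-stranded DNA binding protein of the organelle, was among the latter, at 29.4, 48.9 and 27.8 CPM against 20.4 and 17.2 in control (log2 0.91 ± 0.26 SE, edgeR adjusted p = 0.0179).

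Fewer calls were made among the nuclear subunits of the respiratory complexes and the ATP synthase. Of 78 tested, 6 rose and 3 fell in ATP4B-DTR, 5 rose and 1 fell in GIF-DTR, and 8 rose and 9 fell in GIF/ATP4B-DTR. That is 11.5%, 7.69% and 21.8% called, below the 21.6%, 16.8% and 33.6% of all genes. Median log2 fold changes were 0.12, 0.10 and 0.05, with 53, 48 and 44 of the 78 above 0. The difference from the machinery list was not tested. Sdha, the flavoprotein of complex II, which has no mitochondrially encoded subunit, fell in each line, from 498 and 432 CPM to between 247 and 346 CPM (log2 -0.69 ± 0.13, -0.51 ± 0.13 and -0.82 ± 0.13 SE, edgeR adjusted p = 0.0047, 0.0261 and 0.000899). Ndufb4 of complex I rose in each line, from 22.6 and 19.9 CPM to between 37.1 and 56.2 CPM, as did Uqcr10 of complex III and Atpif1, the inhibitor of the ATP synthase. Cox7c of complex IV rose in ATP4B-DTR and GIF/ATP4B-DTR and was at 0.53 ± 0.19 in GIF-DTR (SE, edgeR adjusted p = 0.0721). Sdhb of complex II and Uqcrfs1 of complex III fell in GIF/ATP4B-DTR only (log2 -0.44 ± 0.13 and -0.44 ± 0.15 SE, edgeR adjusted p = 0.0199 and 0.038). Of the complex I list, 3 rose and 5 fell in GIF/ATP4B-DTR. The 9, 6 and 17 calls became 4, 3 and 11 without control replicate 1 and 1, 0 and 10 without control replicate 2. Leaving out a line sample also lowered them, to 4 without ATP4B-DTR replicate 1 and 3 without its replicate 2, to 3 without GIF-DTR replicate 2 and 2 without its replicate 3, and to 9 without GIF/ATP4B-DTR replicate 2. With the Y-linked covariate, edgeR called 1 subunit in ATP4B-DTR, Atpif1, with 9 at an unadjusted p under 0.05. It called 0 in GIF-DTR, with 3 at an unadjusted p under 0.05, so that the GIF-DTR calls named above were lost. That covariate rests on ATP4B-DTR replicate 1 alone, as described for the machinery. DESeq2 without that covariate called 17 and 13.

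Of 10 regulators of mitochondrial biogenesis, 2 rose in each line, while 2, 3 and 3 fell, which is 20% higher in each line against 12.2%, 9.97% and 18.2% of all genes, and 20%, 30% and 30% lower against 9.39%, 6.82% and 15.4%. Ppargc1a, a coactivator that promotes mitochondrial biogenesis, rose in each line, from 24.4 and 25.4 CPM to between 33.9 and 73.7 CPM (log2 1.27 ± 0.32, 1.07 ± 0.31 and 0.98 ± 0.31 SE, edgeR adjusted p = 0.0173, 0.041 and 0.0331). Esrrb, an orphan nuclear receptor of the estrogen-related family, fell from 14 and 12 CPM to between 0.351 and 0.704 in ATP4B-DTR, 3.78 and 7.38 in GIF-DTR, and 0.202 and 0.599 in GIF/ATP4B-DTR. Its GIF-DTR level exceeded that of ATP4B-DTR (edgeR adjusted p = 0.00688) and of GIF/ATP4B-DTR (edgeR adjusted p = 0.000946), the order also seen in the parietal marker sums, and the part of parietal cells in it was not tested. Esrrg, of the same family, fell in GIF-DTR and GIF/ATP4B-DTR, from 454 and 417 CPM to between 214 and 255 CPM and between 124 and 211 CPM, and was at -0.54 ± 0.21 in ATP4B-DTR (SE, edgeR adjusted p = 0.0889). Ppara, the receptor that activates fatty acid oxidation genes, fell in each line, from 7.23 and 5.82 CPM to between 1.18 and 3.73 CPM. Nrf1, Gabpa and Gabpb1, nuclear factors that act on promoters of the machinery and of the respiratory subunits, did not pass the test in any line, nor did Ppargc1b, a coactivator related to Ppargc1a. Pprc1, another coactivator of that family, rose in GIF-DTR and GIF/ATP4B-DTR, from 23.8 and 19.7 CPM to between 28.7 and 41.1 CPM (edgeR adjusted p = 0.0227 and 0.0143), and was at 0.32 ± 0.18 in ATP4B-DTR (SE, edgeR adjusted p = 0.227). Esrra, of the Esrrb family, rose in ATP4B-DTR, from 115 and 78.4 CPM to between 130 and 161 CPM (edgeR adjusted p = 0.0305), and did not pass the test in the other lines.

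Among 12 genes commonly used as measures of mitochondrial mass, 5, 2 and 6 rose and 0, 1 and 2 fell in the 3 lines. That is 41.7%, 16.7% and 50% higher, against 12.2%, 9.97% and 18.2% of all genes, and 0%, 8.33% and 16.7% lower, against 9.39%, 6.82% and 15.4%. Tomm40, the import pore of the outer membrane, was at 59.9 and 50.2 CPM in control and between 82.4 and 144 CPM in the lines. Of 12 tested genes of the mitochondrial stress response, 5, 5 and 6 rose and 0, 1 and 2 fell, or 41.7%, 41.7% and 50% higher and 0%, 8.33% and 16.7% lower, to be read against the same shares of all genes. Phgdh and Psat1, enzymes of serine synthesis, rose in each line. Psat1 went from 15 and 17.9 CPM to between 32.7 and 59.2 CPM.

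Among 9168 nuclear genes with a mean of at least 8 CPM, those whose log2 level was most like the summed level of the 10 genes over the 11 samples were Cd24a (Pearson r = 0.931), Rnf13 (0.926), Cd55 (0.912), Ndufa7 (0.910) and Ndufa1 (0.903). These values describe 11 points that share 4 genotypes and carry no p. The mean level of Cd24a, a surface glycoprotein, was 1830 ± 122 CPM in control (SD, n = 2), 908 ± 53.5 in ATP4B-DTR, 1450 ± 314 for GIF-DTR and 868 ± 116 for GIF/ATP4B-DTR (SD, n = 3 each). That of Ndufa1, a nuclear subunit of complex I, was 73.6 ± 7.56, 46.0 ± 6.55, 51.3 ± 11.3 and 39.7 ± 5.76 CPM in the same order. For the ratio of mt-Atp8 to mt-Atp6 controls and lines form separate clusters, so likeness was read within the 9 line samples for the 5 genes that ranked first over all 11. It was 0.910 for Mettl8, 0.841 for Bcl2l11, 0.737 for Rsph3b, 0.527 for Tmem245 and 0.435 for Dhx40. These genes were picked on values that include the same 9 samples and the gap between controls and lines, so their r within the lines is no independent measure of likeness.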

How the data were processed

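RNA-seq of 11 corpus mucosa samples was analysed from the deposited table of expected counts per gene, identified by versioned Ensembl IDs, of which 34582 of 34866 matched a symbol in GENCODE M21. The authors' counting program is not given in the sources used here; 30.7% of the deposited nonzero count values were fractions, and the build is mm10 per the submitters' processing notes. The design had assumed whole counts, so values were rounded for testing. Groups came from the genotype labels. The 10 genes and all gene lists were chosen with earlier results of these data known.

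edgeR 4.0.16 (TMM, filterByExpr, robust quasi-likelihood fit, all 11 samples, 1 coefficient per genotype) tested 14889 genes, adjusted by Benjamini-Hochberg over all of them, and was tested on simulated data. The common biological coefficient of variation was 26.6%. Shares were compared between lines by exact permutation tests. Named genes were the 10, the 3 other mitochondrial genes, nuclear copies, all biogenesis regulators and, per list, the 2 called genes with the largest mean change at 8 CPM or more, plus the 5 genes most correlated with the summed level and with the ratio. Copies were found with BLAST+ 2.17.0 among GENCODE transcripts; adding those of mt-Nd3 and mt-Nd4l was chosen after seeing the data. Alternatives were DESeq2 1.42.0 and its size factors, no filter, nuclear scaling, a Y-linked covariate, and leaving out each sample.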

Additional observations from a re-analysis of the deposited data

How the results depend on the processing

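The 10 genes gave 0 calls between lines under every edgeR alternative, leaving out each sample included (0 to 0 in each contrast). The DESeq2 Wald test called 3 in GIF-DTR against ATP4B-DTR and 3 in GIF/ATP4B-DTR against GIF-DTR. Against control, machinery calls ranged from 14 to 76 in ATP4B-DTR, 5 to 53 in GIF-DTR and 48 to 89 in GIF/ATP4B-DTR when single samples were left out, and were 44 in ATP4B-DTR and 3 in GIF-DTR with the Y-linked covariate. Calls of respiratory subunits ranged from 1 to 12, 0 to 9 and 9 to 18 in the same order of lines. They were 17 (ATP4B-DTR) and 13 (GIF-DTR) with the DESeq2 Wald test and 1 and 0 with the Y-linked covariate. The cause of these shifts was not tested.

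The summed share minus control, in percentage points, was -6.57 (ATP4B-DTR), -6.43 (GIF/ATP4B-DTR) and -2.69 (GIF-DTR) with the 50 most abundant nuclear genes left out of the total, and turned to 0.70 in GIF-DTR with nuclear copies added. Alternatives for the share and the ratio against control were chosen after seeing the data. Leaving out single samples gave -4.14 to -3.04 (ATP4B-DTR), -3.96 to -2.93 (GIF/ATP4B-DTR) and -1.49 to 0.39 (GIF-DTR). Between lines the ranges were 2.21 to 4.09 (GIF-DTR minus ATP4B-DTR), -0.31 to 0.79 (GIF/ATP4B-DTR minus ATP4B-DTR) and -3.74 to -1.87 (GIF/ATP4B-DTR minus GIF-DTR).

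The log2 ratio of mt-Atp8 to mt-Atp6 minus control was -2.83 (ATP4B-DTR), -2.91 (GIF/ATP4B-DTR) and -3.17 (GIF-DTR) once the copy of mt-Atp6 was added, with none annotated for mt-Atp8. It was -2.56 (ATP4B-DTR) and -2.65 (GIF/ATP4B-DTR) against the other 9 genes, and -2.51 and -2.63 against mt-Co3. Leaving out single samples gave -2.24 to -1.84 (ATP4B-DTR), -2.44 to -2.04 (GIF/ATP4B-DTR) and -2.62 to -2.12 (GIF-DTR). Between lines it gave -0.58 to -0.08, -0.27 to -0.11 and -0.12 to 0.38, in the order of the contrasts used for the share.

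Of the fold changes of single genes across all alternatives, 1803 kept their direction and side of the threshold, 182 no longer passed, 34 newly passed and 45 changed sign, none of these past the threshold before or after. All 10 genes changed sign in GIF/ATP4B-DTR against ATP4B-DTR when single samples were left out, with ranges of -0.10 to 0.41 (mt-Atp6), -0.34 to 0.11 (mt-Atp8), -0.11 to 0.27 (mt-Co1), -0.15 to 0.44 (mt-Co2), -0.17 to 0.40 (mt-Co3), -0.26 to 0.17 (mt-Cytb), -0.28 to 0.093 (mt-Nd1), -0.15 to 0.27 (mt-Nd2), -0.14 to 0.24 (mt-Nd4) and -0.0095 to 0.27 (mt-Nd5). In GIF/ATP4B-DTR against GIF-DTR mt-Co2 ranged from -0.56 to 0.0054. Against control the ranges were, in ATP4B-DTR, -0.15 to 0.072 (Uqcrfs1), -0.46 to 0.047 (Ppargc1b) and -0.096 to 0.077 (Gabpb1). In GIF-DTR they were -0.15 to 0.012 (Gabpa), -0.12 to 0.082 (Gabpb1) and -0.094 to 0.46 (Esrra), and Gabpa in GIF/ATP4B-DTR ranged from -0.026 to 0.064. With the Y-linked covariate mt-Co1 was -0.0087 and mt-Co2 -0.042 in GIF/ATP4B-DTR against ATP4B-DTR, Uqcrfs1 was 0.086 and Gabpb1 0.024 in ATP4B-DTR against control, and Gabpb1 was 0.046 in GIF-DTR. Gabpa in GIF/ATP4B-DTR was -0.0029 without the filter. Where 1 control was left out, the other was assumed to vary like the lines. No paired analysis was possible because the groups compared share no number in their labels. The main limits are the 2 controls, the division of reads with nuclear copies, and that expected counts do not show which reads were split. A further limit of all values against control is that genotype cannot be told apart from how control and line libraries were made or counted. Depth set no limit at these levels, while Gm28438 in the lines lay under the floor of 3 counts.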
